A study of Mus musculus with 12 samples.

Results

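Immediate early genes are switched on within minutes of a growth signal or a stress, before any new protein has to be made. Kinase cascades act on factors already bound to their promoters, such as serum response factor at the CArG box and CREB at the cyclic AMP response element, and the new transcripts are short-lived. Many of them code for transcription factors, and some of the rest code for proteins that shut the response down again. The same genes also rise when a tissue is cut or its cells are taken apart. Described here are 10 such genes, found in the expression table by symbol among its 20788 genes. They are Fos, Fosb, Jun, Junb and Atf3, whose proteins pair through a leucine zipper, the zinc finger factor Egr1, the orphan nuclear receptor Nr4a1, the nuclear protein Ier2, the phosphatase Dusp1 and the RNA-binding protein Zfp36. All 10 had reads in every library, and 9 of the 10 passed the filter on low counts and were tested among 16388 genes. Atf3 was not.

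The RNA came from whole testes of F1 mice in 4 groups, each with 3 libraries. In the study's methods, F0 males received lentivirus in the testes and were mated with untreated females, and their adult sons were sampled. Virus carrying a mix of short hairpins against the long non-coding RNA lncRNA5251 defined the knockdown group, and the control virus of that vector, LV3, defined 3NC. Virus carrying lncRNA5251 for overexpression defined the overexpression group, and the control virus of its vector, LV5, defined 5NC. All 4 groups therefore descend from virus-injected males, and no uninjected line is part of these comparisons. The design text of the series states instead that it was the F1 testes that were transfected. The strain is written "IRC mouse" in the labels and ICR in the methods. The table lists no gene under the name lncRNA5251, so the state of the targeted RNA in these testes was not analysed here. Nothing in the labels ties the 3 libraries of a group to separate animals, so the tests measure the spread between libraries, part of which may be technical.

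Libraries held 12719699 to 15771655 estimated reads. Levels are given as CPM, the estimated reads brought to a single library size with TMM scaling, and levels of different genes are compared as FPKM, which also divides by gene length. The tissue label was checked against 12 germ cell genes, which summed to between 11590 and 16120 CPM and were led by the protamine gene Prm2. In 3NC replicate 2 and knockdown replicate 1 this sum was lowest, 11610 and 11590 CPM, while 11 leukocyte genes summed to 352.9 and 472.1 CPM, against 84.42 to 104.2 CPM in the other 10 libraries. These 2 libraries stood apart, and the group means and fits below are also given without them. Genes of another tissue moved with the groups. The summed level of 5 epididymis genes was 12.73 to 284.6 CPM in 5NC, against 0.9206 to 1.111 CPM in the overexpression group, and 31.14 to 74.51 CPM in 3NC, against 0.7976 to 16.75 CPM in the knockdown group. Most of it was Crisp1, a secreted protein of the epididymis, in the libraries of both controls, while Lcn5 and Gpx5 were at 0.132 CPM or less in all 12 libraries. Both vector controls thus lay above their lines in epididymis genes, and the part of this in the comparisons below was not tested. In RNA from a whole organ, fewer cells of a type and less RNA per cell cannot be told apart.

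RefSeq positions on mouse build GRCm38 (mm10) were as follows. Fos spans chr12:85473890-85477274 on the plus strand and Nr4a1 spans chr15:101253902-101274795 on the plus strand. On the minus strand are Jun at chr4:95049036-95052222, Junb at chr8:84976909-84978748, Ier2 at chr8:84661331-84662852, Fosb at chr7:19302696-19310118, Zfp36 at chr7:28376784-28379228, Atf3 at chr1:191170296-191183333 and Dusp1 at chr17:26505591-26508472. Jun overlaps the antisense gene Junos, and Zfp36 overlaps the antisense gene Gm44710. No source used here states whether reads were counted by strand, so the reads of these pairs may not be separable.

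Promoter sequence from RefSeq was at hand for 8 of the 10 genes, all but Egr1 and Ier2. The 250 bases before the start of transcription were searched on both strands for the letters of known control elements. The windows below, each 30 bases long and written 5′ to 3′ on the strand of the gene, show where the letters of such elements were found, 1 match a gene, with the matching letters in capitals.
Fos, CRE half-site, chr12:85473812-85473841, plus strand: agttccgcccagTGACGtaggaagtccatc
Junb, CRE half-site, chr8:84978837-84978866, minus strand: gcttcctgacagTGACGcgagccgcctcct
Atf3, CRE half-site, chr1:191183334-191183363, minus strand: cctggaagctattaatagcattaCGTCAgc
Nr4a1, CRE half-site, chr15:101266794-101266823, plus strand: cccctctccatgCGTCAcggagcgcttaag
Dusp1, full CRE, chr17:26508597-26508626, minus strand: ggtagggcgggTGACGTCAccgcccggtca
Zfp36, CArG box, chr7:28379267-28379296, minus strand: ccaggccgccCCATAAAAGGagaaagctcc

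The half-site of the cyclic AMP response element, TGACG or CGTCA, was found in 6 of the 8 promoters (Atf3, Dusp1, Fos, Fosb, Junb and Nr4a1), against 17.8% of 32851 RefSeq promoters. The full element, TGACGTCA, which contains the half-site, was found in Dusp1 alone and in 1.55% of promoters. Zfp36 was the single gene with a CArG box, an element held by 1.47% of promoters. The AP-1 site, TGACTCA or TGAGTCA, was in 0 of the 8 and in 4.46% of promoters. TATAAA, searched on both strands, was found in Fos and in 12.4% of promoters. For Nr4a1 the start used lies inside the gene, at a downstream transcript start. A match describes the letters only and does not show that a factor was bound.

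Per length of gene, Nr4a1 was the most abundant of the 10, with a mean of 14.9 FPKM over the 12 libraries and a range of 10.23 to 21.16 FPKM. Dusp1 followed with a mean of 5.13 FPKM and Zfp36 with 3.98 FPKM. Jun, Junb, Ier2 and Egr1 had means of 3.13, 2.95, 2.18 and 1.79 FPKM. Atf3 at 0.831, Fosb at 0.689 and Fos at 0.538 FPKM were the least abundant. Atf3 had the lowest mean of the 10 without the 2 libraries that stood apart, at 0.176 FPKM, below Fos at 0.282 and Fosb at 0.698 FPKM. The ranges of most neighbours in this order overlapped, and that of Nr4a1 did not reach down to the highest library of Dusp1, at 8.24 FPKM.

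Fos and Jun proteins form AP-1, the dimer that carries much of the early response to target genes. In the order of replicates 1, 2 and 3, which is kept below, Fos was at 0.463, 3.67 and 0.203 CPM in 3NC and at 3.16, 0.798 and 0.743 CPM in the knockdown group. It was at 0.187, 0.493 and 0.358 CPM in 5NC and at 0.658, 0.466 and 1.19 CPM in the overexpression group. One library of 3NC and one of the knockdown group thus stood above all others, and the rest of the Fos values rested on 3 to 15 reads a library. Jun, the partner of Fos, was at 9.001, 16.2 and 6.01 CPM in 3NC and at 17.0, 7.31 and 8.58 CPM in the knockdown group. Its values were 9.98, 8.58 and 8.30 CPM in 5NC and 7.10, 8.53 and 7.22 CPM in the overexpression group. The same pair, 3NC replicate 2 and knockdown replicate 1, was highest.

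Junb codes for a Jun protein that is a weaker activator than Jun at many sites. It was at 3.84, 11.99 and 2.84 CPM in 3NC and at 14.8, 4.05 and 4.39 CPM in the knockdown group. In 5NC it was at 3.12, 2.89 and 2.36 CPM and in the overexpression group at 3.49, 2.13 and 3.65 CPM. The same pair was again highest, at 2.73 and 3.37 times the highest of the other 10 libraries. Atf3, a stress-induced partner of Jun proteins, had the widest gap. It was at 0.331, 8.20 and 0.203 CPM in 3NC and at 6.26, 0.532 and 0.540 CPM in the knockdown group. It was at 0.187, 0.352 and 0.215 CPM in 5NC and at 0.329, 0.333 and 0.238 CPM in the overexpression group. These levels come from 132 and 99 reads in the high pair and from 3 to 8 reads in each of the other 10 libraries, so the pair was 15.2 and 11.6 times above the highest of the rest.

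Fosb, a close relative of Fos, did not follow. It was at 2.45, 2.24 and 2.36 CPM in 3NC and at 2.09, 2.79 and 2.36 CPM in the knockdown group. It was at 2.75, 2.46 and 2.29 CPM in 5NC and at 2.50, 2.33 and 2.54 CPM in the overexpression group. All 12 libraries lay within a narrow band of 32 to 44 reads, and the pair that was highest for the other AP-1 genes held the lowest Fosb levels in CPM. In FPKM, knockdown replicate 1 was lowest at 0.6, but 3NC replicate 2 was at 0.69 FPKM, within the range of the other libraries.

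Egr1, a zinc finger factor induced through serum response factor, was at 3.84, 9.26 and 2.97 CPM in 3NC and at 11.8, 4.05 and 5.61 CPM in the knockdown group. Its values were 5.49, 3.45 and 4.94 CPM in 5NC and 4.74, 3.06 and 3.41 CPM in the overexpression group. The same pair led once more. Nr4a1 showed another order. It was at 37.5, 23.1 and 29.9 CPM in 3NC and at 35.8, 44.5 and 45.4 CPM in the knockdown group. It was at 37.0, 23.4 and 26.6 CPM in 5NC and at 50.8, 43.5 and 25.6 CPM in the overexpression group. Here 3NC replicate 2 was the lowest of the 12 libraries, and overexpression replicate 1 was the highest.

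Ier2, a nuclear protein of the early response, was at 2.71, 4.97 and 2.30 CPM in 3NC and at 4.55, 3.26 and 2.97 CPM in the knockdown group. It was at 4.31, 2.53 and 2.43 CPM in 5NC and at 2.10, 2.60 and 1.35 CPM in the overexpression group. The pair was highest, by a small margin over 5NC replicate 1. Dusp1, which removes phosphate from MAP kinases, was at 9.33, 10.3 and 7.90 CPM in 3NC and at 14.5, 9.57 and 11.2 CPM in the knockdown group. It was at 8.36, 6.12 and 8.37 CPM in 5NC and at 8.42, 8.59 and 8.25 CPM in the overexpression group. Its highest library was knockdown replicate 1, but 3NC replicate 2 lay below knockdown replicate 3. Zfp36, which binds AU-rich messages and speeds their decay, was at 4.63, 16.3 and 3.78 CPM in 3NC and at 14.4, 4.05 and 5.74 CPM in the knockdown group. It was at 4.43, 5.42 and 4.37 CPM in 5NC and at 4.80, 4.46 and 4.52 CPM in the overexpression group. The 10 libraries other than the pair differed little, and the pair was 2.85 and 2.50 times above the highest of them.

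**Figure D1:**
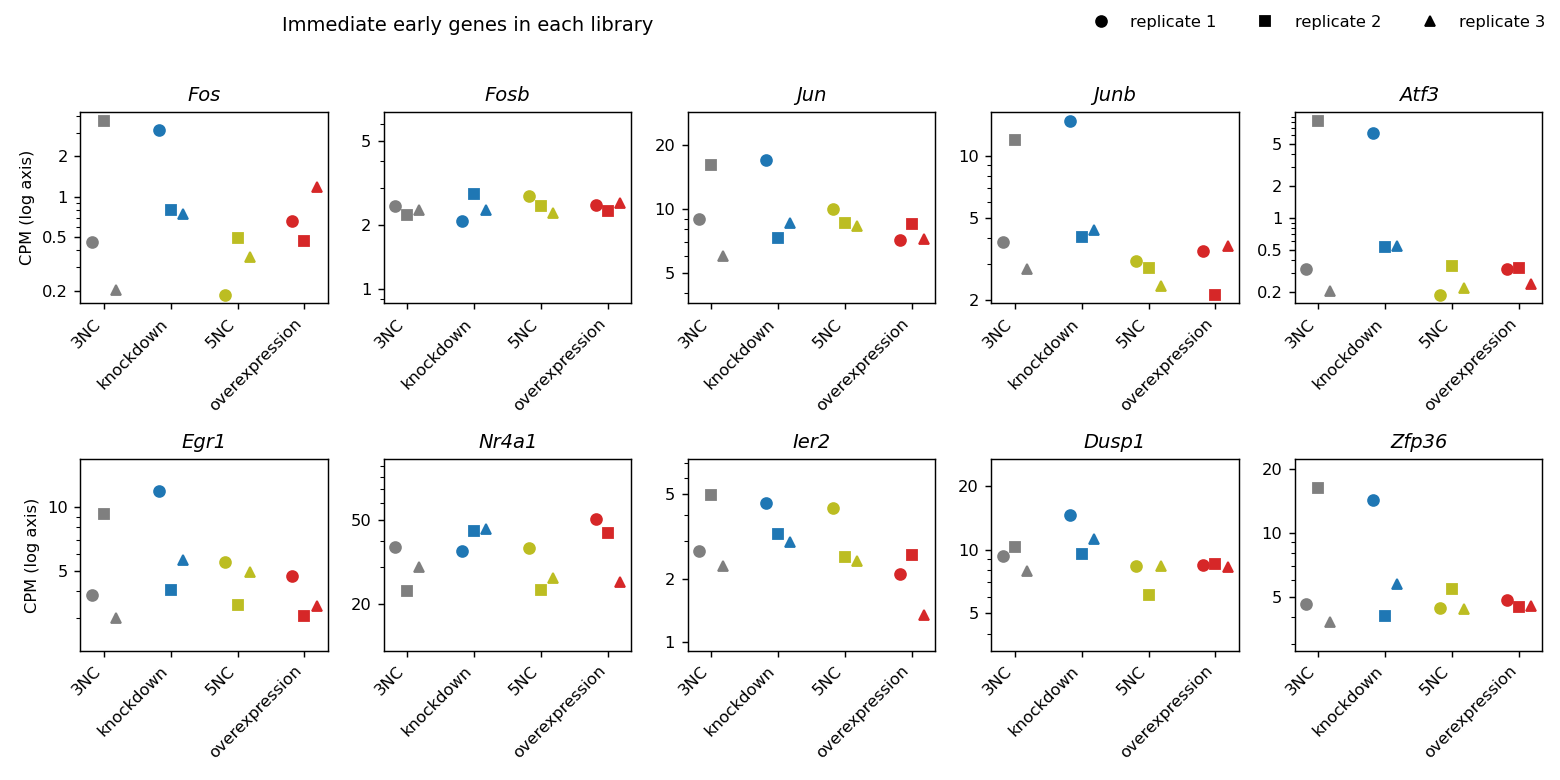
Level of each of the 10 genes in CPM (log axis) in the 3 libraries of each group, with colour for the group and marker shape for the replicate number. For Fos, Jun, Junb, Atf3, Egr1, Ier2 and Zfp36 the 2 highest points are 3NC replicate 2 and knockdown replicate 1, and for Fosb these libraries are the lowest in CPM.

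By group mean, the knockdown group was highest for 7 of the genes (Fos, Jun, Junb, Egr1, Ier2, Dusp1 and Nr4a1), 3NC for Atf3 and Zfp36, and 5NC for Fosb. Neighbouring groups in each order overlapped in their libraries, with 1 exception, Atf3, whose knockdown libraries all lay above those of the overexpression group. That gap rested on 99, 8 and 8 reads against 5, 5 and 3 reads in a gene that was not tested. The share of all tested genes with such a gap was not computed for these 2 groups. Fos averaged 1.57 ± 1.38 CPM (SD, n = 3) in the knockdown group and 0.346 ± 0.153 CPM (SD, n = 3) in 5NC. Nr4a1 averaged 41.9 ± 5.31 CPM (SD, n = 3) in the knockdown group and 29.0 ± 7.14 CPM (SD, n = 3) in 5NC. Fosb averaged between 2.35 and 2.50 CPM in the 4 groups. The order rested in part on the 2 libraries that stood apart. Without them, the knockdown group was highest for 8 genes, the overexpression group for Fos and 5NC for Jun. The Fos means were then 0.77 CPM in the knockdown group and 0.771 CPM in the overexpression group, and those of Jun 7.94 CPM in the knockdown group and 8.96 CPM in 5NC. Atf3 in 3NC averaged 0.267 CPM and Zfp36 4.21 CPM, both below the knockdown means of 0.536 and 4.9 CPM.

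The first comparison asked whether the early genes differed between testes of the knockdown line and its own vector control. In the knockdown group against 3NC, 0 of 9 tested genes passed an adjusted p of 0.05 by edgeR's quasi-likelihood test, and 0% of all tested genes did. At an unadjusted p under 0.05 there were also 0 of 9, and 0 were called by DESeq2 or by limma-trend on log2 CPM. The log2 fold changes ran from -0.04 for Zfp36 to 0.47 for Nr4a1. Their median was 0.11, beside -0.02 over all tested genes, and it was -0.15 without knockdown replicate 1 and 0.55 without 3NC replicate 2. Nr4a1 had a log2 fold change of 0.47 (SE 0.26, 95% interval -0.09 to 1.04, edgeR adjusted p 0.764). Dusp1 had a log2 fold change of 0.36 (SE 0.18, 95% interval -0.04 to 0.76, edgeR adjusted p 0.764). With 1 library left out, Dusp1 ran from 0.18, where knockdown replicate 1 was dropped, to 0.48, where knockdown replicate 2 was dropped. No gene had its 3 libraries of one group all above those of the other, a pattern that 11.3% of tested genes showed.

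The overexpression line was then set against its own control. Of the 9 tested genes, 0 passed by edgeR in the overexpression group against 5NC, against 0.311% of all tested genes, and 0 of 9 had an unadjusted p under 0.05. Again 0 were called by DESeq2 or by limma-trend on log2 CPM. The median log2 fold change was -0.03, beside -0.01 over all tested genes. Fos had the highest value, 1.14 (SE 1.05, 95% interval -1.16 to 3.44, edgeR adjusted p 0.741), from 3 to 15 reads a library. Ier2 had the lowest, -0.61 (SE 0.37, 95% interval -1.42 to 0.19, edgeR adjusted p 0.557). With 1 library left out, Fos ran from 0.71 to 1.47 and Ier2 from -0.83 to -0.29, the last where 5NC replicate 1 was dropped. Nr4a1 had a log2 fold change of 0.46 (SE 0.26, 95% interval -0.10 to 1.03, edgeR adjusted p 0.515). For 0 of the 10 genes were the groups' libraries apart, against 21.3% of tested genes.

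The vector controls were set against each other as the background of such comparisons. In 5NC against 3NC, 0 of 9 passed by edgeR, against 0.128% of all tested genes, and 0 of 9 had an unadjusted p under 0.05. Neither DESeq2 nor limma-trend on log2 CPM called any, a count of 0 for each. The log2 fold changes were below 0 for 8 of the 9 genes, with a median of -0.22, beside -0.02 over all tested genes. With 1 library left out, this median ran from -0.48, where 3NC replicate 3 was dropped, to 0.06, where 3NC replicate 2 was dropped. Fos had a log2 fold change of -2.06 (SE 0.999, 95% interval -4.25 to 0.13, edgeR adjusted p 0.482) and Junb of -1.16 (SE 0.59, edgeR adjusted p 0.503). Libraries of the groups were apart for 0 of the 10 genes and for 13% of tested genes. This comparison shares its 5NC libraries with that of the overexpression group.

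The difference between the overexpression effect and the knockdown effect passed by edgeR for 0 of 9 genes, against 0.0244% of tested genes, and 0 of 9 had an unadjusted p under 0.05. It ran from -0.72 for Egr1 and Ier2 to 1.02 for Fos on the log2 scale. Without the 2 libraries that stood apart Fos was at -0.06, Egr1 at -0.81 and Ier2 at -0.92. A test of any difference among the 4 groups called 0 of 9, against 0.238% of tested genes. Dusp1 was the 1 gene there with an unadjusted p under 0.05, and its edgeR adjusted p was 0.367. Without the 2 libraries that stood apart, the unadjusted edgeR p of Dusp1 was 0.122, and 0 of 9 genes were under 0.05. The share of all tested genes at this unadjusted p was not computed for the test of any difference. Atf3, fitted with no filter on low counts, had log2 fold changes of -0.25, 0.27 and -3.49 in the 3 comparisons, with edgeR adjusted p of 0.985, 0.999 and 0.498. Without the 2 libraries they were 0.98, 0.27 and -0.10, with edgeR adjusted p of 0.917, 0.88 and 0.991, so the value of -3.49 rested on the 132 reads of 3NC replicate 2.

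Without 3NC replicate 2 and knockdown replicate 1, the count of genes passing by edgeR was still 0 of 9 in each comparison. The share of all tested genes was then 0% for the knockdown group against 3NC, 0.976% for the overexpression group against 5NC and 0.305% for 5NC against 3NC. In the knockdown group against 3NC all 9 log2 fold changes were above 0, with a median of 0.31 and a smallest edgeR adjusted p of 0.903. The median over all tested genes was -0.02. In transcript GC content the 9 genes lay at percentile 62.5 (Fos) to 98.8 (Junb) of tested genes. With all libraries in the fit, the 500 tested genes nearest in GC content to each had median log2 fold changes of 0.04 (Fos) to 0.22 (Junb). The part of GC content in the 9 fold changes was not tested. Fos moved most in the knockdown comparison, from 0.11 to 1.19 (SE 0.62, 95% interval -0.17 to 2.55). In 5NC against 3NC the log2 fold change of Fos went from -2.06 to 0.03 (SE 0.64) and that of Junb from -1.16 to -0.26 (SE 0.26). The median in this comparison turned from -0.22 to 0.06. In the overexpression group against 5NC, which holds neither library, the fold changes stayed close and the intervals narrowed, and 1 of 9 genes, Fos, had an unadjusted p under 0.05, with an edgeR adjusted p of 0.301. That is 11.1% of the 9, beside 16.4% of all tested genes in the same fit.

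**Figure D2:**
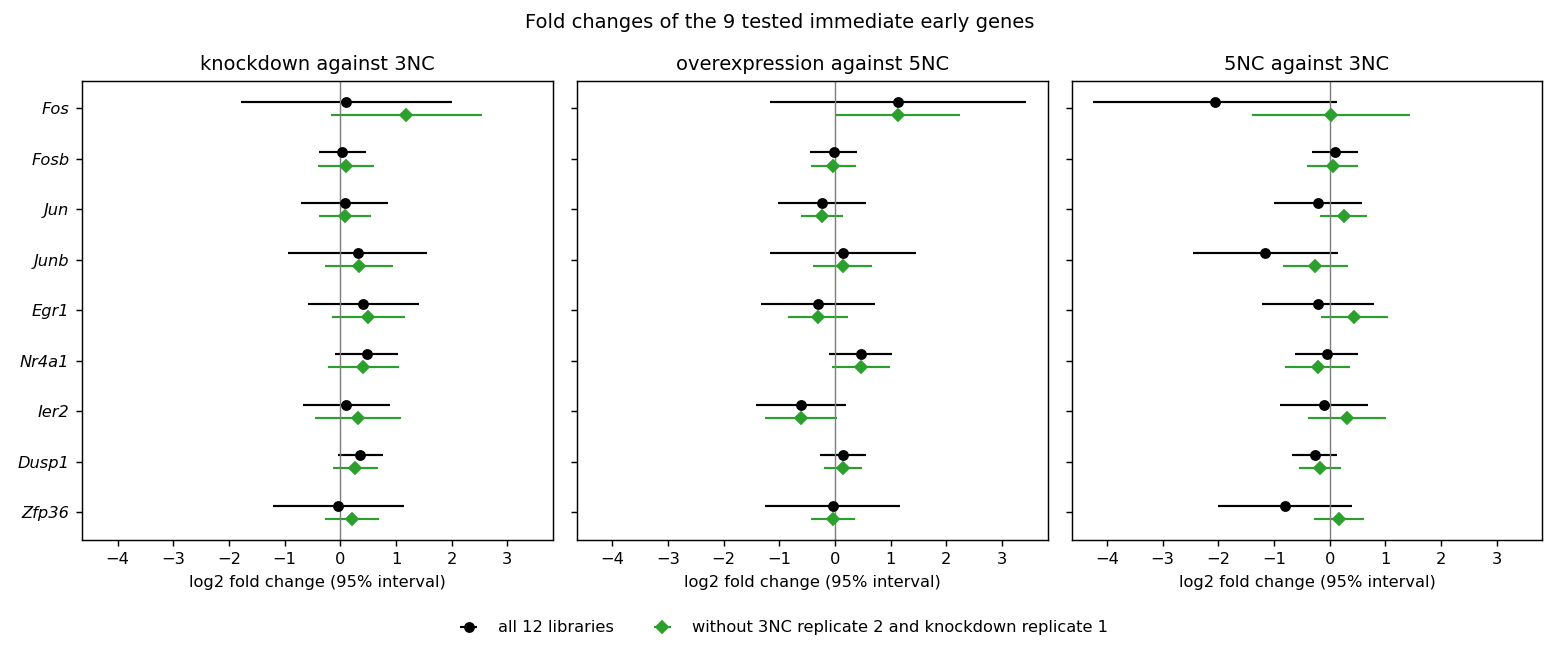
Log2 fold change of the 9 tested genes in 3 comparisons with 95% intervals from the edgeR fit, with all 12 libraries (black circles) and without 3NC replicate 2 and knockdown replicate 1 (green diamonds). The intervals of all 9 genes span 0 in the 12-library fit, and Fos in 5NC against 3NC moves from -2.06 to 0.03 once the 2 libraries are left out.

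The pair of libraries was examined gene by gene. Both lay above all other 10 libraries for 7 of the 10 genes, and both lay below them in CPM for Fosb. Among genes tested, this high pattern was met by 6 of 9 (66.7%), beside 13.9% of all 16388 genes, and the low pattern by 5.25% of all genes. The pair came from different groups, a vector control and the knockdown line. Leukocyte genes, whose summed level helped set the pair apart above, were high there by that choice. Of 9 tested markers, 8 (88.9%) were highest in the pair. Ptprc, the pan-leukocyte phosphatase CD45, was at 94.8 and 71.7 CPM there and at 6.91 CPM or less elsewhere. C1qa, a complement gene of macrophages, was at 36.5 and 104 CPM, and at most 17.4 CPM elsewhere. The T cell gene Cd3e was at 4.10 and 3.60 CPM, while in 3 of the other libraries it was at 0. The leukocyte genes Cd79a and Cd163 did not follow in the 3NC library of the pair. Their levels in it were 0.124 and 1.24 CPM, while libraries outside the pair reached 0.266 and 2.43 CPM. Mrc1 led in that library by a small margin, 51.2 CPM against up to 51.1 CPM outside the pair. Germ cell and Sertoli cell lists had 0 of 12 and 0 of 7 genes highest in the pair. The part of leukocytes in the early gene levels was not tested.

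**Figure D3:**
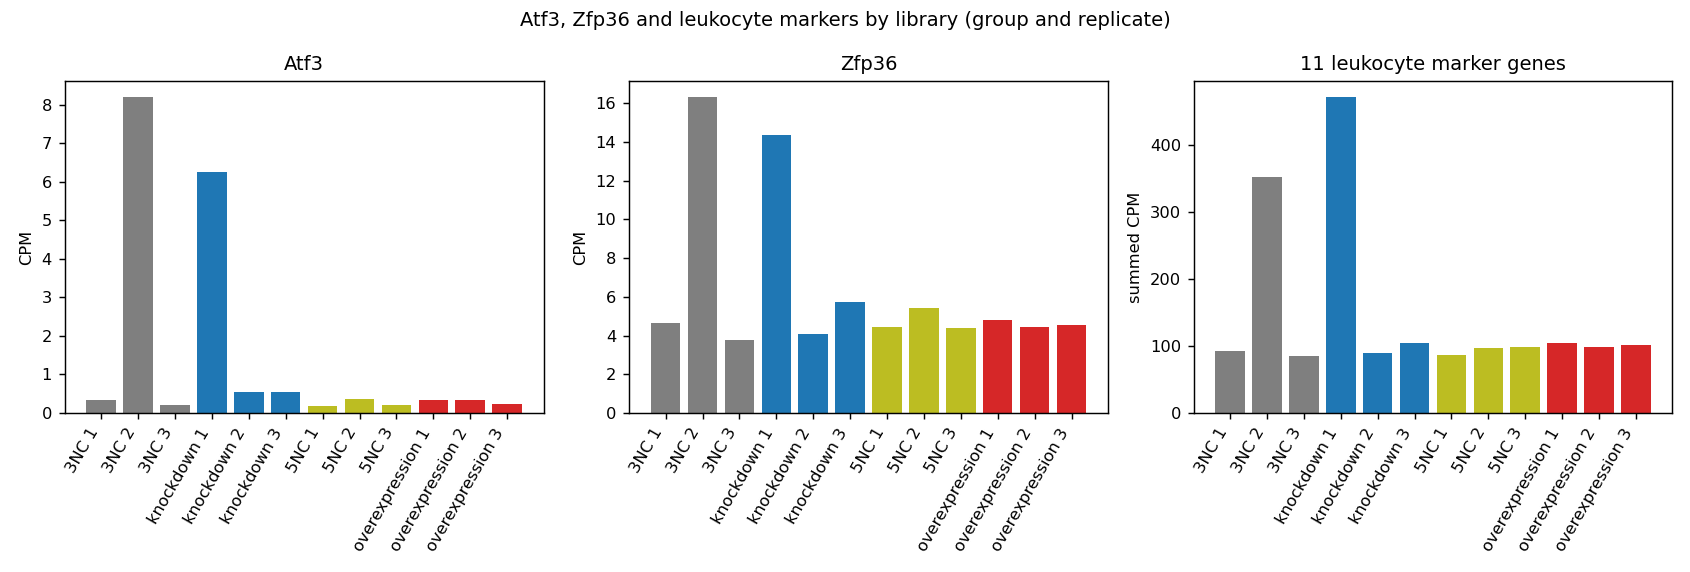
Level in each library of Atf3 and Zfp36 (CPM) and of 11 leukocyte marker genes (summed CPM), with bars coloured by group. In all 3 panels the bars of 3NC replicate 2 and knockdown replicate 1 stand above the other 10, and the leukocyte sum is 352.9 and 472.1 CPM there against at most 104.2 CPM elsewhere.

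A wider list of 42 further immediate early genes was examined in the same way. The pair was highest for 21 of them (50%) and lowest for 0. It was met by 14 of the 21 genes of lower mean FPKM and by 7 of the 21 of higher. Socs3, a feedback inhibitor of cytokine signalling, was at 18.2 and 21.6 CPM in the pair and at 0.40 to 2.13 CPM elsewhere. Myc was at 3.54 and 4.17 CPM in the pair and at most at 0.878 CPM elsewhere, and the Fos relative Fosl2 was at 18.8 and 15.4 CPM, against at most 6.98 CPM. The 8 most abundant genes of the list did not show it. They were led by Arc (65.9 FPKM), the antiproliferative gene Btg1 (40.8 FPKM), the Krüppel-like factor Klf4 (39.2 FPKM) and the clock gene Per1 (29.8 FPKM). Arc, known from synapses, was at 139 and 178 CPM in the pair and at 164 to 239 CPM in the other 10 libraries.

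**Figure D4:**
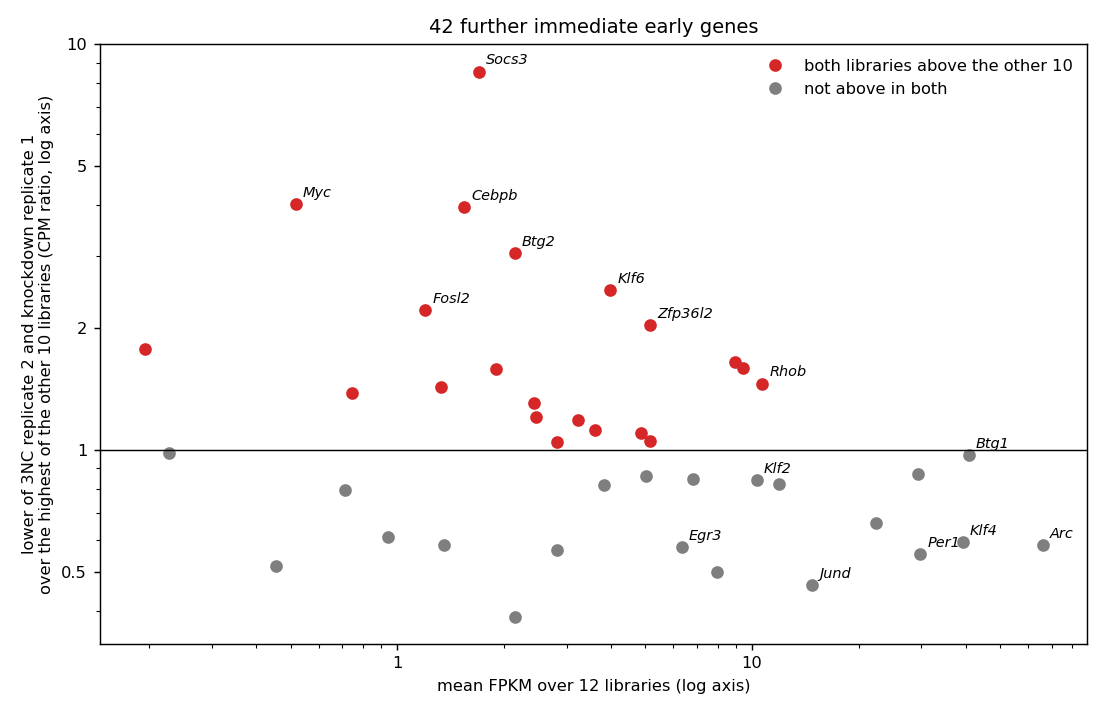
Each of 42 further immediate early genes by mean FPKM over 12 libraries and by the ratio of the lower of 3NC replicate 2 and knockdown replicate 1 to the highest of the other 10 libraries, in CPM (both axes log). The 21 genes in red lie above a ratio of 1, and none of the 8 genes of highest FPKM is among them.

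By edgeR, 0 of these 42 genes passed in each of the 3 comparisons. At an unadjusted p under 0.05 there were 3 for the knockdown group, 4 for the overexpression group and 4 between the vector controls. These are 7.14%, 9.52% and 9.52% of the list, beside 5.64%, 11.9% and 10.8% of all tested genes. Without the 2 libraries that stood apart, 0 passed and the counts were 1, 6 and 4, or 2.38%, 14.3% and 9.52% of the list, beside 4.35%, 16.4% and 14.4% of all tested genes in that fit. In the knockdown comparison the smallest p belonged to Klf2 and Egr3, with log2 fold changes of 0.32 (SE 0.12) and 0.40 (SE 0.17) both with an edgeR adjusted p of 0.764. Egr3, a relative of Egr1, had the smallest p in the overexpression comparison, with a log2 fold change of 0.79 (SE 0.17, edgeR adjusted p 0.0987). It was at 17.1, 14.5 and 16.3 CPM in 5NC, at 34.4, 27.5 and 20.9 CPM in the overexpression group and at 22.8, 19.8 and 25.3 CPM in 3NC. All 3 libraries of 5NC thus lay below those of both other groups. Klf4 came next, at 91.1, 80.7 and 80.6 CPM in 5NC and 147, 129 and 103 CPM in the overexpression group, a log2 fold change of 0.58 (SE 0.16, edgeR adjusted p 0.167). Its 3NC libraries were at 120, 88.0 and 131 CPM. DESeq2, which called 2.02% of all genes in this comparison where edgeR called 0.311%, called both, with adjusted p of 0.00601 for Egr3 and 0.0319 for Klf4. Egr3 and Klf4 also had the smallest p in 5NC against 3NC, with log2 fold changes of -0.50 (edgeR adjusted p 0.357) and -0.43 (edgeR adjusted p 0.397), and these comparisons share the 5NC libraries. The low 5NC libraries of both genes were also those with 12.73, 284.6 and 119.6 CPM of epididymis genes, and the part of that tissue in these differences and in the DESeq2 calls was not tested. Without the 2 libraries that stood apart, the edgeR adjusted p in the overexpression comparison was 0.0515 for Egr3 and 0.0622 for Klf4.

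The kinases and factors that switch the early genes on formed a list of 25 genes, from MAP kinases and the proteins that act on them to serum response factor, its partners and the CREB family. By edgeR, 0 of 25 passed in each comparison, with 1, 4 and 2 genes at an unadjusted p under 0.05 in the knockdown, overexpression and vector control comparisons. These are 4%, 16% and 8% of the list, beside the 5.64%, 11.9% and 10.8% of all tested genes. Without the 2 libraries that stood apart, 0 passed and the counts were 0, 4 and 4, or 0%, 16% and 16% of the list, beside 4.35%, 16.4% and 14.4% of all tested genes. The most abundant was Crem (85.8 FPKM), whose product in testis is an activator of haploid germ cell genes. It was followed by the kinases Mapk3 (72.2 FPKM) and Map2k2 (45 FPKM) and by Atf1 (43.1 FPKM). Srf, which codes for serum response factor, had a log2 fold change of 0.43 (SE 0.19, edgeR adjusted p 0.764) in the knockdown comparison. In the overexpression comparison Rps6ka1, a kinase downstream of MAP kinases, had a log2 fold change of 0.49 (SE 0.14, edgeR adjusted p 0.174) and Mkl2, a partner of serum response factor, of 0.27 (edgeR adjusted p 0.276). Between the controls Rps6ka1 stood at -0.45 (edgeR adjusted p 0.294) and the stress kinase Mapk9 at 0.52 (edgeR adjusted p 0.406). The 2 libraries that stood apart were highest for 6 of the 25 (24%).

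The spread between libraries set the genes apart from each other. Among the 500 tested genes nearest in level, the SD of log2 CPM about the group means was highest for Atf3, at percentile 96.4 over the 12 libraries, and it was at 94.6 for Nr4a1 and at 0.4 for Fosb. Without the 2 libraries that stood apart Atf3 was at 4.39, from 3 to 8 reads a library, and Fos went from 87.4 to 55.2. For Zfp36 it was at percentile 93.2, and without the 2 libraries at 33.2. Junb went from 92.6 to 61.4 and Jun from 89.6 to 57.2. Egr1 went from 92.4 to 79. Ier2, at 74.4 and 76.4, and Dusp1, at 44.8 and 40.2, moved little, as did Fosb, at 0.6 without the pair. Nr4a1 was at 97.8 without the pair.

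The spread of Nr4a1 did not rest on the pair. Its 5 lowest libraries, at 23.12 to 29.92 CPM, were 3NC replicates 2 and 3, 5NC replicates 2 and 3 and overexpression replicate 3, and the other 7 were at 35.78 to 50.76 CPM. In those same 5 libraries the fifth of tested genes with the highest GC content had a median log2 CPM below its mean over the libraries, by -0.187 to -0.118, and in the other 7 it was above, by 0.0755 to 0.154. The Nr4a1 transcript has 57.0% GC, at percentile 86.8 of tested genes. The 500 tested genes nearest in GC content had a median log2 fold change of 0.13 in the knockdown group against 3NC and 0.05 in the overexpression group against 5NC, where Nr4a1 had 0.47 and 0.46. The 3 libraries of fewest reads, 5NC replicates 2 and 3 and overexpression replicate 3, were all among the low 5. With a term for these 3 in the fit, the log2 fold change of Nr4a1 was 0.20 in the overexpression group against 5NC (edgeR adjusted p 0.759) and 0.40 in 5NC against 3NC (edgeR adjusted p 0.396). The part of GC content in the level of Nr4a1 was not tested.

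**Figure D5:**
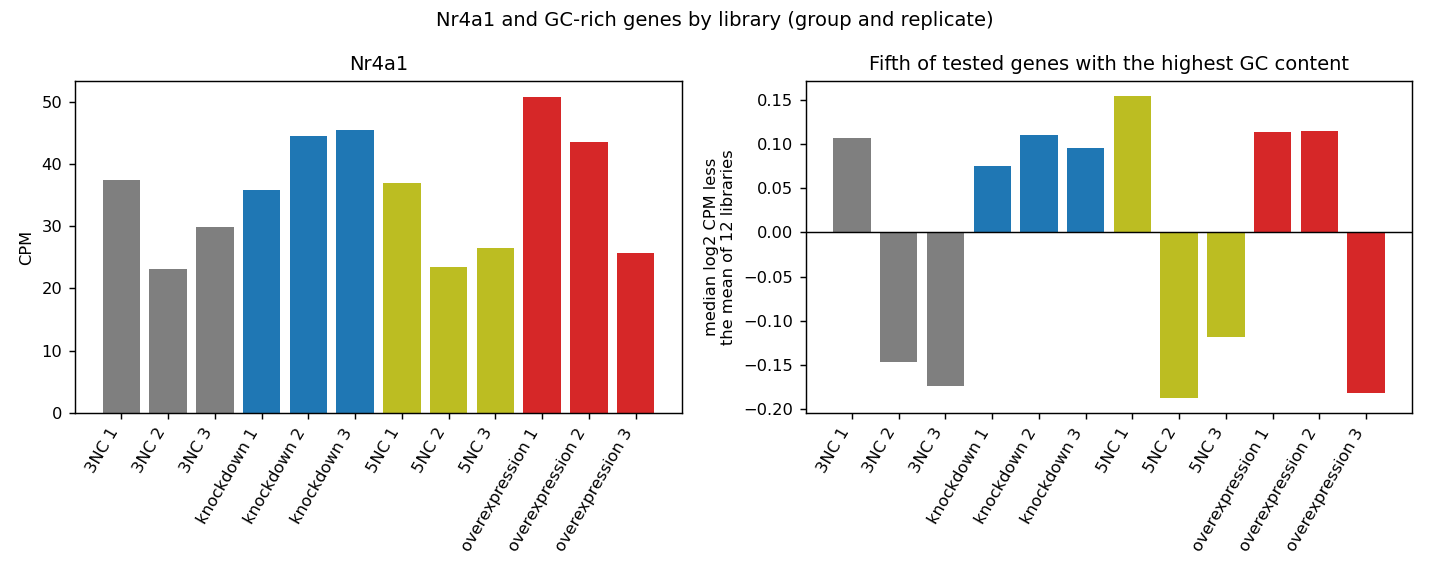
Nr4a1 in CPM (left) and the median deviation of the fifth of tested genes with the highest GC content, in log2 CPM from the mean of 12 libraries (right), by library and coloured by group. The 5 libraries below 0 on the right are the 5 lowest for Nr4a1, at 23.12 to 29.92 CPM.

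Genes most like the 9 tested members were named by the mean of Pearson's r of log2 CPM over the 12 libraries, among 11937 genes with a mean of at least 5 CPM. They were Gnai2 (mean r 0.622), Prr13, Dgkz, Rab5c, Fth1 and Nrros (0.616). The points share the 2 libraries that stood apart, so this likeness describes that pair. Over the other 10 libraries the 6 most alike were different, Rubcn (mean r 0.544), Nisch, Myo1a, Ccar2, Spire2 and Rbm8a (0.511). Among the members themselves, the median r of 45 pairs over these 10 libraries was 0.277, with 7 pairs over 0.5. Nr4a1 taken alone was most like Ubxn11 (r 0.987 over 12 libraries and 0.987 over 10), Mtx1, Tcp11, Med25, Ehmt2 and Arhgap33, and these points share the split by GC content. Of the 42 further early genes, Per1 (r 0.972), Csrnp1 (0.943) and Jund (0.935) were most like it over the same 12 libraries. Of the members, Dusp1 was most like it, with an r of 0.332 over the 12 libraries and of 0.687 over the 10. The r of Atf3 was -0.193 over 12 and 0.532 over 10, where it rests on 3 to 8 reads a library.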

How the data were processed

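RNA-seq of F1 mouse testes was analysed in 12 libraries, 3 in each of 4 groups, with groups and replicate numbers taken from the sample titles. Per the study's methods the authors enriched poly(A) RNA and used SOAPaligner, and mm10 is the build in the labels. The authors deposited an estimated count per gene, not scaled, with a fraction in 17.3% of genes and in 0 of the 10 members. They also deposited FPKM values, called RPKM in their methods. No source used here states how reads were shared among genes. The table's 18 per-sample columns of other groups were not used.

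Estimated counts were rounded, filtered with filterByExpr (minimum count 10), scaled by TMM and fitted as 4 groups in edgeR 4.0.16 (R 4.3.3, glmQLFit and glmQLFTest), with Benjamini-Hochberg adjustment over 16388 genes at 0.05. The biological coefficient of variation was 22.9%, with 8 residual degrees of freedom. SE came from the fold change and F. Depth was 12719699 to 15771655 reads, and the width of an interval depends on both a gene's reads and its spread between libraries. Libraries of a group differed beyond sampling noise (lowest chi-square per degree of freedom 3.56). Scripts were tested on simulated data.

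Members and lists were chosen with earlier results of these data known. Of the further lists, the text names the 2 genes with the smallest p per comparison and the 4 of highest mean FPKM. One gene that this rule names is not reported here. Socs3, Myc, Fosl2, the single leukocyte and heat shock genes, the counts of genes highest in 2 libraries, the likeness to Nr4a1 (with Csrnp1, Jund) and the GC comparison were chosen after values were seen. Alternatives were RLE factors, no scaling, no filter, a replicate block, the compared libraries alone, leaving out each library in turn, both libraries that stood apart left out, DESeq2 1.42.0, limma-trend (limma 3.58.1) on log2 CPM and on log2(FPKM + 0.1) or log2(FPKM + 1) of genes at 0.5 FPKM or more in 3 libraries, or without that filter, and edgeR's robust fit. A term for the 3 libraries of fewest reads and a subtraction of the median of 500 genes of like GC content were added after seeing the data. Transcript GC content and promoter letters came from reference sequence of GRCm38. GC content was found for 97.8% of tested genes and for all 10 members.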

Additional observations from a re-analysis of the deposited data

How the results depend on the processing

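The count of members that passed was 0 in each of the 3 comparisons under all 25 settings with a test, and the smallest edgeR, DESeq2 or limma adjusted p of a member was 0.224. DESeq2 called 2 further early genes in the overexpression group against 5NC, where edgeR called 0, and 328 genes in all, where edgeR called 51. Of 702 single-gene values under 26 settings, 657 kept direction and 45 did not, and none of the latter had passed a test. Correlations of deviations between same-numbered libraries of different groups ran from -0.641 to 0.386, with a median of -0.00374. Between libraries of other numbers they ran from -0.583 to 0.773, with a median of -0.00792. Deviations within a group of 3 sum to 0, so these values cannot settle whether the numbers pair the libraries. With the replicate block Zfp36 was at 0.0572 in the knockdown group against 3NC, where the reported value is -0.0372, and 0 members passed. By limma-trend the same value was 0.0707 (CPM), 0.0527 (FPKM + 0.1, with or without the filter) and 0.028 (FPKM + 1). Without both libraries that stood apart it was 0.217, and in 5NC against 3NC Fos was at 0.029, Jun at 0.255, Egr1 at 0.443, Ier2 at 0.309 and Zfp36 at 0.168. With a term for the 3 libraries of fewest reads Ier2 was at 0.37 and Nr4a1 at 0.398 in that comparison. Relative to genes of like GC content, with no test, Fosb, Jun and Ier2 were at -0.0657, -0.0298 and -0.0953 in the knockdown group against 3NC.

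The median over members ran from -0.085 to 0.0471 in the overexpression group against 5NC when 1 library was left out. For some genes, leaving out 1 library at a time gave ranges that crossed 0. In the knockdown group against 3NC they were -0.912 to 2.21 for Fos, -0.0817 to 0.133 for Fosb, -0.389 to 0.547 for Jun, -0.562 to 1.21 for Junb, -0.152 to 1.07 for Egr1, -0.0977 to 0.52 for Ier2 and -0.755 to 0.937 for Zfp36. In 5NC against 3NC they were -2.56 to 0.034 for Fos, -0.479 to 0.255 for Jun, -0.49 to 0.442 for Egr1, -0.423 to 0.306 for Ier2, -0.273 to 0.132 for Nr4a1 and -1.13 to 0.17 for Zfp36. In the overexpression group against 5NC they were -0.085 to 0.0471 for Fosb and -0.0983 to 0.0634 for Zfp36. Leaving out 3NC replicate 2 or knockdown replicate 1 gave the ends of the ranges of Fos, Jun, Junb, Egr1, Ier2 and Zfp36 in the first comparison. Where no value shows it, the cause was not tested. Depth limits Fos and Atf3 most, with 3 to 15 and 3 to 8 reads in the 10 other libraries.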

Other observations

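Fosb varied little between libraries. Its reads over the 12 libraries ran from 32 to 44 with a variance of 0.376 times the mean, below the equal variance and mean that counting alone gives, while for Atf3 the variance was 82.1 times the mean. In the heat shock list, 2 of 6 genes were highest in 3NC replicate 2 and knockdown replicate 1. Hspa8, the constitutive cytosolic chaperone, was at 436 and 391 CPM there and at 232 to 283 CPM elsewhere. The inducible chaperone gene Hspa1a was at 1.93 and 3.16 CPM in the pair and Hspa1b at 7.83 and 12.2 CPM, and for neither were both libraries above the other 10. Hspb1 was at 20.2 CPM in each of the pair and at most at 19.4 CPM elsewhere.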
